A study of Rattus norvegicus with 20 samples.

Results

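miR-103-3p and miR-107-3p are near-identical microRNAs (miRNAs, short RNAs that pair through bases 2 to 8, the seed, with target messenger RNAs). They were taken by their names in the array design, rno-miR-103-3p and rno-miR-107-3p, as 2 of its 719 rat miRNAs. Levels were measured in kidneys of male Wistar rats of 80 to 100 g body weight. In 3 groups the rats were given aristolochic acid I (AAI), a plant acid toxic to the renal tubule, intraperitoneally at 40 mg/kg, and kidneys were taken on day 2, day 4 or day 6. The control group received the vehicle alone, PEG400 mixed with water at equal parts on the same schedule, and its kidneys were taken on day 6. All animals were of 1 strain and sex, no allele was manipulated, and each group held 5 kidneys, each on 1 array, so 20 arrays in all. Because every vehicle kidney came from day 6, treatment and collection day cannot be told apart in the comparisons of AAI day 2 and day 4 with vehicle.

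In mammals, miR-103 and miR-107 lie in introns of the pantothenate kinase genes, whose enzymes start the synthesis of coenzyme A. They are best known as metabolic regulators: in mice they lower insulin sensitivity, with caveolin-1 as a target, and in human cells they repress Dicer, the enzyme that cuts miRNA hairpins. miR-107 was also described as induced by p53, the transcription factor of the DNA damage response, in human cells. AAI is known to form DNA adducts in kidney.

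The mature sequences are shown because both miRNAs are read by probes that must tell a single base apart. They are from RefSeq (GRCr8), 5′ to 3′, with the seed in capitals:
miR-103-3p: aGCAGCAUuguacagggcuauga
miR-107-3p: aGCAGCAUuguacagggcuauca
Both are 23 bases long and carry 1 difference, G22C, written as the base of miR-103-3p, the position from the 5′ end and the base of miR-107-3p. The difference lies outside the seed. Of 693 rat mature names in the RefSeq table, these 2 alone had the seed GCAGCAU.

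The hairpins follow, with the mature strand in capitals, because miR-103-3p is made from 2 loci and miR-107-3p from 1:
Mir103a1: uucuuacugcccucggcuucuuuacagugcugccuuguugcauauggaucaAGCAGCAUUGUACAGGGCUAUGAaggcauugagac
Mir103a2: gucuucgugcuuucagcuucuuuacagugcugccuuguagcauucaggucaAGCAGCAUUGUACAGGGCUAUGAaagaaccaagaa
Mir107: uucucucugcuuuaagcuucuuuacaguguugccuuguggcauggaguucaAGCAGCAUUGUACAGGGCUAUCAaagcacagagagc
In GRCr8, Mir103a1 is at chr10:20748474-20748559 on the plus strand, inside the span of Pank3. Mir103a2 is at chr3:138963227-138963312 on the plus strand, inside Pank2. Mir107 is at chr1:241750418-241750504 on the minus strand, inside Pank1. Whether the hairpins are intronic in rat was not looked up here. The array reads the mature strand, so the share of miR-103-3p from Mir103a1 and Mir103a2 could not be measured. The opposite strands of all 3 hairpins (miR-103-1-5p, miR-103-2-5p and miR-107-5p) were on the array and were detected on 0 of 20 arrays, at intensities from -5.75 to 0.84. An intensity is a spot's brightness in arbitrary units after background subtraction, which can fall below 0.

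Each miRNA was read by 2 probes, printed here because their second base is the only one that separates the pair (in capitals):
miR-103-3p probe 1: tCatagccctgtacaatg
miR-103-3p probe 2: tCatagccctgtacaat
miR-107-3p probe 1: tGatagccctgtacaatgct
miR-107-3p probe 2: tGatagccctgtacaatgc
The probes are complementary to the 3′ part of the mature strand, and each has 1 mismatch with the other miRNA. How much of the other miRNA each probe picks up was not tested. Each probe had 10 spots on an array. The median coefficient of variation among the spots of a probe was 2.21% to 4.24%, no spot was saturated, and 5 of 400 miR-103-3p spots and 16 of 400 miR-107-3p spots were left out as outliers. Both miRNAs were detected on all 20 arrays.

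Levels are given as log2 of the miRNA's signal divided by the array's 75th percentile over the 231 miRNAs detected on all arrays, so a difference of 1 unit is a doubling. On this scale both miRNAs were lower at AAI day 6 than in vehicle kidney, by about the same amount. Each was 1.26-fold lower than in vehicle. At day 2 and day 4 neither passed the test. The fall depended on how arrays were scaled, as set out below.

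The level of miR-103-3p in the 5 vehicle kidneys was 1.99, 2.04, 1.91, 2.02 and 2.10. At AAI day 2 it was 2.12, 1.90, 1.70, 1.98 and 1.94, and at day 4 it was 1.77, 1.62, 1.78, 2.09 and 1.92. At day 6 it was 1.71, 1.71, 1.55, 1.67 and 1.74. The day 6 kidneys all lay below the lowest vehicle kidney, whereas 2 of 5 day 2 kidneys and 3 of 5 day 4 kidneys did. The mean was 2.01 ± 0.07 (SD, n = 5) for vehicle, 1.93 ± 0.15 for day 2, 1.84 ± 0.18 for day 4 and 1.68 ± 0.07 for day 6.

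The level of miR-107-3p in vehicle was 2.24, 2.26, 2.21, 2.22 and 2.36. At day 2 it was 2.36, 2.16, 1.95, 2.22 and 2.22, and at day 4 it was 1.97, 1.86, 2.12, 2.31 and 2.11. At day 6 it was 1.90, 2.01, 1.81, 1.94 and 1.98. Again all 5 day 6 kidneys lay below every vehicle kidney, against 2 of 5 at day 2 and 4 of 5 at day 4. The means were 2.26 ± 0.06, 2.18 ± 0.15, 2.07 ± 0.17 and 1.93 ± 0.08 (SD, n = 5) in the same order. Levels of the pair are not set against each other, since they come from different probes.

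**Figure D1:**
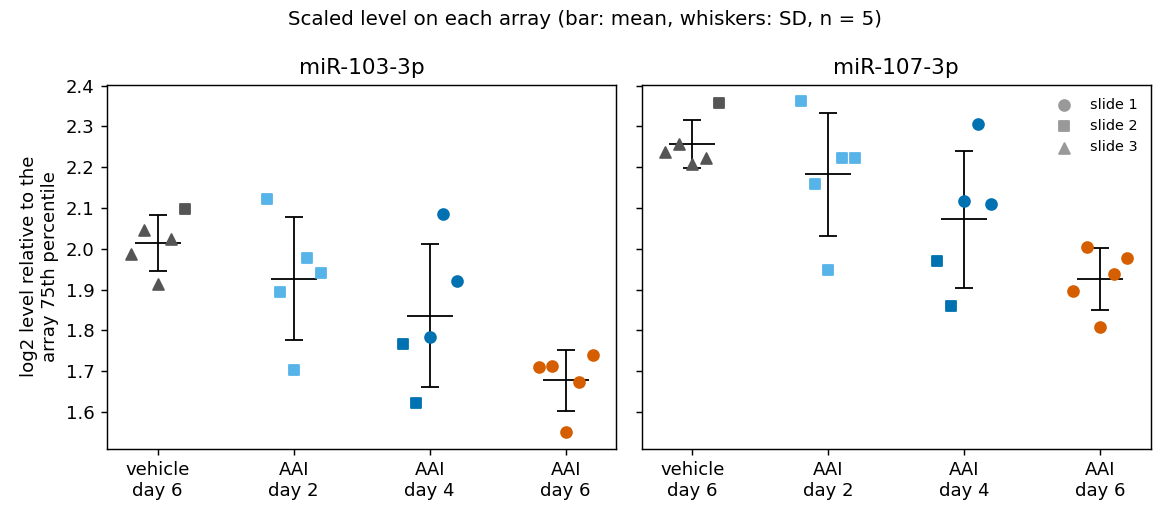
Log2 level of miR-103-3p (left) and miR-107-3p (right) on each array, relative to the array's 75th percentile, by group, with the slide as the marker shape, the mean as a bar and the SD as whiskers (n = 5). The 5 AAI day 6 arrays lie below the 5 vehicle arrays in both panels, and the day 2 and day 4 arrays overlap vehicle.

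The comparison of AAI day 6 with vehicle, collected on the same day, was tested with limma across 262 miRNAs, those with all 5 arrays of some group detected, with Benjamini-Hochberg adjustment. The change of miR-103-3p was -0.34 ± 0.09 (log2, SE; adjusted p = 0.00711), 1.26-fold lower with a 95% interval of 1.11 to 1.43. The change of miR-107-3p was -0.33 ± 0.08 (adjusted p = 0.00702), 1.26-fold lower with an interval of 1.11 to 1.42. These falls stood among many others: 26% of the 262 tested miRNAs were called at day 6, 18.7% as lower and 7.25% as higher. In 19.1% of them all day 6 arrays lay below all vehicle arrays. Over the 262 the median change was -0.11, so relative to it miR-103-3p differed by -0.22 and miR-107-3p by -0.22. Ordered from the largest fall, miR-103-3p was at place 43 and miR-107-3p at place 45 of 262.

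At day 2 the change against vehicle was -0.09 ± 0.09 for miR-103-3p and -0.07 ± 0.08 for miR-107-3p (SE; limma, adjusted p = 0.795 for each), where 1.53% of miRNAs were called. At day 4 it was -0.18 ± 0.09 for miR-103-3p (limma, adjusted p = 0.239) and -0.19 ± 0.08 for miR-107-3p (limma, adjusted p = 0.197), where 3.44% were called. The means ran from vehicle through day 2 and day 4 to day 6 in falling order for both miRNAs, but no neighbours in that order differed past the threshold. Day 6 against day 4 gave -0.16 for miR-103-3p (limma, adjusted p = 0.598) and -0.15 for miR-107-3p (limma, adjusted p = 0.653), with 0.763% of miRNAs called. Day 4 against day 2 gave -0.09 and -0.11 (limma, adjusted p = 0.849 for each), with 0% called by limma and 20 of 262 miRNAs at an unadjusted p under 0.05. Day 6 against day 2 gave -0.25 for miR-103-3p (limma, adjusted p = 0.0676) and -0.26 for miR-107-3p (limma, adjusted p = 0.0560) with 11.1% called. Neither passed with all arrays. AAI day 2 array 3 was the lowest of its group on the scaled level. Before scaling it was the brightest of its group for both (1924 and 2282), and its 75th percentile was the highest (592). Without that array both passed at -0.31 for miR-103-3p and -0.32 for miR-107-3p (limma, adjusted p = 0.0309 and 0.0253). No other omission of 1 array made either pass (limma, adjusted p up to 0.207 and 0.179). Over all 4 groups at once, the F test of limma gave an adjusted p of 0.0404 for miR-103-3p and 0.0375 for miR-107-3p, with 17.9% of miRNAs called. The comparisons with vehicle share the same 5 vehicle arrays.

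All 4 probes gave the same picture, but they are not independent readings. Probe 2 of each miRNA is probe 1 shortened by 1 base, and all share the array's scaling. At day 6 the change against vehicle was -0.32 for probe 1 and -0.37 for probe 2 of miR-103-3p, and -0.32 and -0.36 for probe 1 and probe 2 of miR-107-3p. On each of these probes the 5 day 6 arrays lay below the 5 vehicle arrays. At day 4 the 4 probes changed by -0.20 to -0.18 and at day 2 by -0.09 to -0.07, with overlap between the groups on every probe.

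The fall at day 6 was seen on the scaled level and not in brightness. The unscaled intensity of miR-103-3p averaged 1478 ± 174 (SD, n = 5) for vehicle, 1704 ± 169 for day 2, 1685 ± 251 for day 4 and 1531 ± 299 for day 6. That of miR-107-3p averaged 1753 ± 237, 2035 ± 203, 1988 ± 309 and 1814 ± 327. The 75th percentile of the array averaged 367 ± 51.9 in vehicle and 452 ± 83.6, 472 ± 73.8 and 480 ± 96.3 on the AAI days. At day 6 the percentile was thus 1.31 times that of vehicle, and the intensity of each of the pair was 1.04 times that of vehicle. In these bulk samples, fewer cells holding a miRNA and less of it per cell cannot be told apart.

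**Figure D2:**
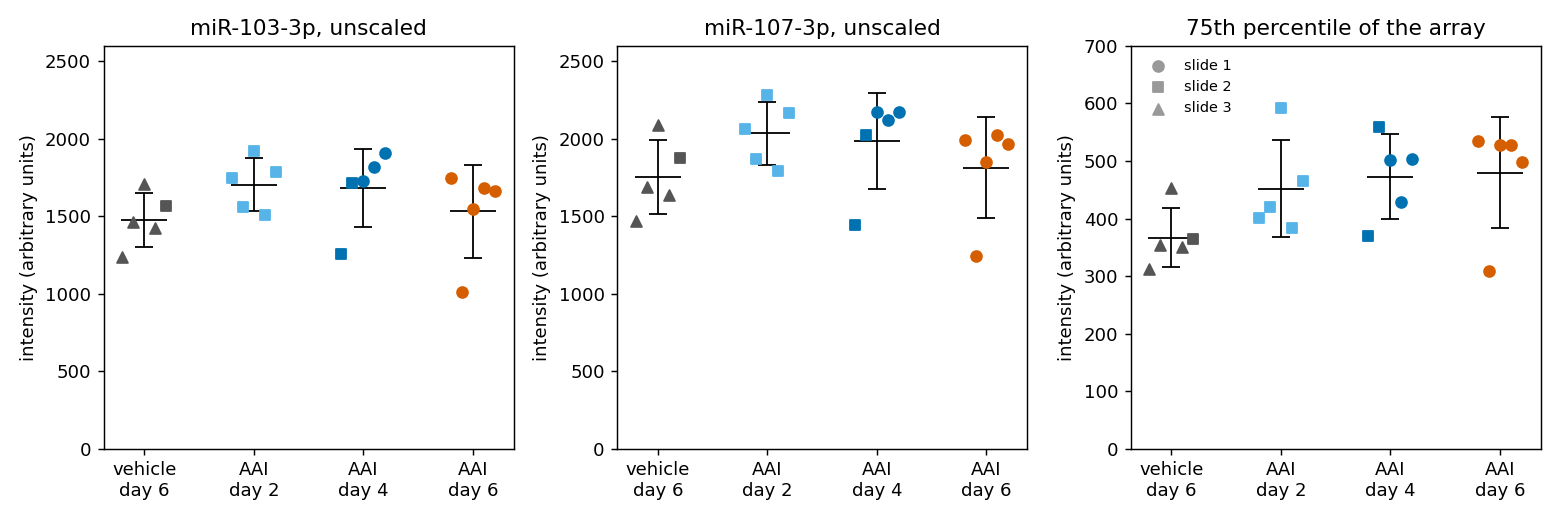
Unscaled intensity of miR-103-3p (left) and miR-107-3p (middle) and the 75th percentile intensity of the array (right) by group, in arbitrary units from 0, with the slide as the marker shape, the mean as a bar and the SD as whiskers (n = 5). The intensities of the pair overlap between all groups, while the percentile averages 367 in vehicle and 480 at AAI day 6.

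At day 6 the call was kept when scaled to the 75th percentile of all miRNAs (-0.44 for each, limma adjusted p = 0.0131 and 0.0147). It was lost under every other alternative scaling. Without scaling the change was 0.03 for miR-103-3p and 0.04 for miR-107-3p, and scaled to the labelling spike-ins, control RNAs added before labelling, it was -0.08 and -0.07 (limma, adjusted p = 0.832 and 0.842). With quantile normalization it was -0.15 and -0.12 (limma, adjusted p = 0.131 and 0.179), and in the authors' deposited series table -0.13 and -0.12 (limma, adjusted p = 0.140 and 0.183). Without scaling the median change over the tested miRNAs was 0.26, and the pair again stood -0.22 from it. Any division by 1 number per array must give this distance, so it is no evidence on the scaling. Under quantile normalization, however, the pair stood -0.04 and -0.01 from the median, and in the series table -0.01 and 0.01. The split of all calls moved too, from 19 higher and 49 lower to 33 higher and 1 lower without scaling, 21 and 1 with the spike-ins, 19 and 4 with the software's total gene signal, and 16 and 11 when scaled to the median.

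**Figure D3:**
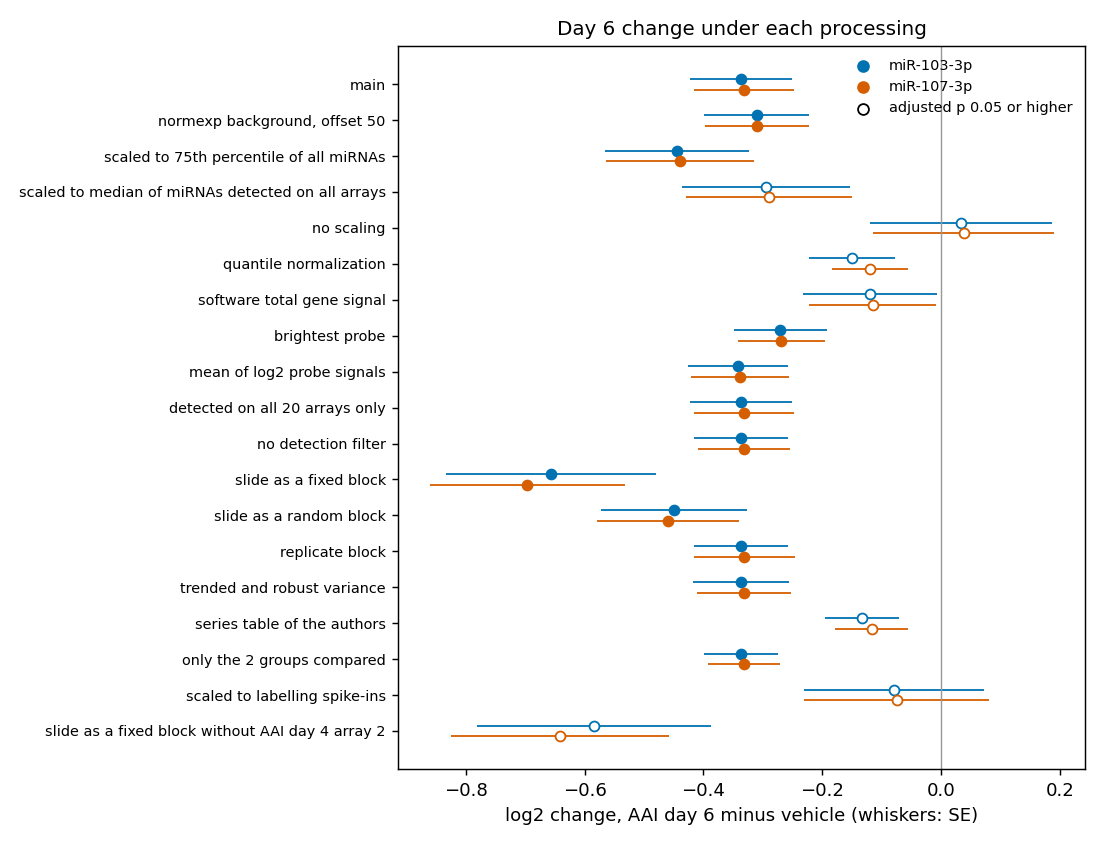
Log2 change of miR-103-3p and miR-107-3p at AAI day 6 against vehicle under each processing (horizontal axis, whiskers are SE), with filled points where the adjusted p is under 0.05. The change ranges from -0.66 and -0.70 with slide as a fixed block to 0.03 and 0.04 without scaling, and both miRNAs move together in every row.

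The arrays sat on 3 slides. Slide 3 held 4 vehicle arrays, slide 2 held 1 vehicle array, all 5 day 2 arrays and 2 day 4 arrays, and slide 1 held 3 day 4 arrays and all 5 day 6 arrays. No slide held both vehicle and day 6 arrays, so that contrast could not be taken within a slide. With slide as a fixed block the day 6 change was -0.66 ± 0.18 for miR-103-3p (limma, adjusted p = 0.0167) and -0.70 ± 0.16 for miR-107-3p (limma, adjusted p = 0.0123). That fit links vehicle with day 6 only through the day 4 arrays and 1 vehicle array. Without AAI day 4 array 2 it gave -0.58 and -0.64 and the call was lost (limma, adjusted p = 0.0721 and 0.0603). Within day 4, miR-103-3p averaged 1.69 on 2 arrays of slide 2 and 1.93 on 3 arrays of slide 1, and miR-107-3p 1.91 and 2.18. The part of the slide in the day 6 change was not tested beyond these fits.

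The question whether AAI moved one of the pair without the other was asked on the log2 ratio of miR-103-3p to miR-107-3p within an array, which no scaling by 1 number can change. The ratio was -0.24 ± 0.04 (SD, n = 5) for vehicle, -0.26 ± 0.02 for day 2, -0.24 ± 0.06 for day 4 and -0.25 ± 0.04 for day 6. The groups overlapped. Against vehicle the ratio changed by -0.01 at day 2 (95% interval -0.058 to 0.030; two-sided exact permutation p = 0.556), by 0.01 at day 4 (-0.070 to 0.071; exact p = 0.810) and by -0.01 at day 6 (-0.059 to 0.054; exact p = 0.865). Each had an adjusted p of 0.865 over the 3 tests in the exact permutation test, whose smallest possible p with 5 against 5 arrays is 0.00794. No separate change of miR-107-3p was thus detectable at this precision, and the day 6 interval holds shifts of the ratio up to 0.059 in size. Each probe has 1 mismatch with the other miRNA, and how much of it each picks up was not tested. Such pickup would shrink shifts of the ratio, so the interval does not bound a separate change of either miRNA.

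Across the 20 arrays the scaled levels of the pair had a Pearson r of 0.976 and a Spearman rho of 0.979. Without the 2 arrays farthest from the median of miR-103-3p, r was 0.966, and over deviations from the group means it was 0.948. These are descriptions, since both values come from the same array, share its scaling and come from near-identical probes. Of the 230 other miRNAs detected on all arrays, miR-107-3p was the one most like miR-103-3p, followed by miR-1839-5p (r = 0.965), let-7d-5p (0.948), miR-324-5p (0.943) and miR-28-5p (0.941). For miR-107-3p the order was miR-103-3p, let-7d-5p (r = 0.959), miR-28-5p (0.958), miR-151-5p (0.946) and miR-1839-5p (0.927). The median r over the 230 was 0.40 for miR-103-3p and 0.41 for miR-107-3p.

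**Figure D4:**
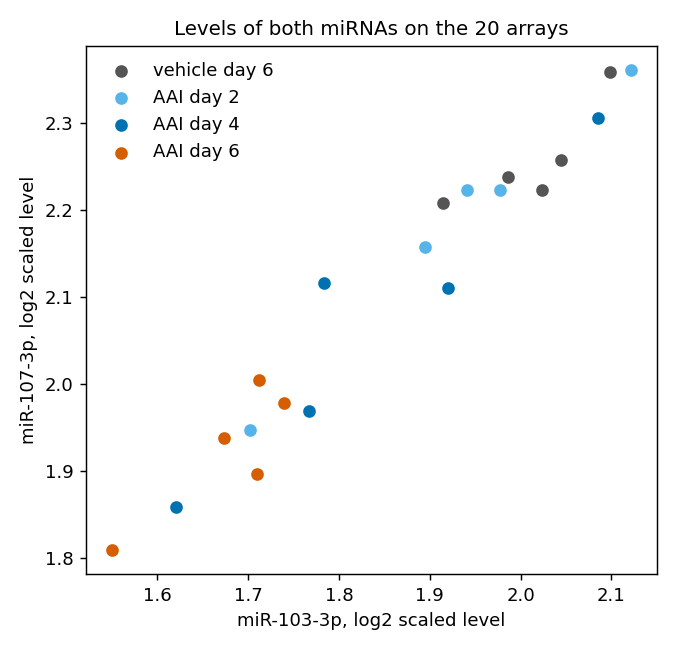
Log2 scaled level of miR-103-3p (horizontal) against miR-107-3p (vertical) on the 20 arrays, coloured by group. The points run along 1 line (r = 0.976), with the AAI day 6 arrays, and some day 2 and day 4 arrays, at its lower end.

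The miR-15 and miR-107 group is a wider set of miRNAs that share the letters AGCAGC near the 5′ end and are known to repress cell cycle genes such as cyclin D1. The letters begin at base 1 in miR-103-3p and miR-107-3p and at base 2 in the relatives, which shifts the seed by a base. Of 693 rat mature names, 10 (1.44%) hold AGCAGC. The relatives on the array are shown with bases 2 to 8 in capitals, for comparison with the pair's seed:
miR-15b-5p: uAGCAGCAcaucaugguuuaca
miR-16-5p: uAGCAGCAcguaaauauuggcg
miR-195-5p: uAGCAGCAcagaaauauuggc
miR-497-5p: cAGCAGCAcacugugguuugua
miR-322-5p: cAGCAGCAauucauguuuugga
miR-503-5p: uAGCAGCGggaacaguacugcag
All 6 were tested. At day 6 against vehicle 0 rose and 2 fell, where 7.25% of all 262 miRNAs rose and 18.7% fell. The list median was -0.14 beside -0.11 over all 262. miR-15b-5p changed by -0.28 ± 0.09 (SE; limma, adjusted p = 0.0299) and miR-16-5p by -0.26 ± 0.09 (limma, adjusted p = 0.0460). Their mature strands lie close together in GRCr8, at chr2:155555197-155555218 and chr2:155555343-155555364 on the plus strand. Both calls were near the threshold and were lost in 15 of 28 alternatives for miR-15b-5p and 18 of 28 for miR-16-5p. The other 4 ranged from -0.17 to 0.30 and did not pass. At day 2 and day 4, 0 of 6 passed limma's adjusted test, and 0 and 1 had an unadjusted p under 0.05. Of all 262, 1.53% and 3.44% passed, and 11.1% and 22.1% had an unadjusted p under 0.05.

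p53-responsive miRNAs were listed because miR-107 is counted among p53 targets in human cells. Of 8 on the array, 7 were tested, and at day 6 against vehicle 3 rose and 2 fell, where 7.25% and 18.7% of all 262 did. The list median was -0.07 beside -0.11 over all 262. miR-34a-5p, a direct p53 target that slows the cell cycle, rose by 2.92 ± 0.37 (log2, SE; limma, adjusted p = 1.6e-05). When the slide entered as a fixed block, its change was 1.96 and the call was lost (limma, adjusted p = 0.0761). miR-34c-5p, from the other p53-bound miR-34 locus, rose by 1.28 ± 0.28 (limma, adjusted p = 0.00285), and miR-34b-5p of the same locus by 1.10 ± 0.28 (limma, adjusted p = 0.00656). Both calls were lost with slide as a block: as a fixed block miR-34c-5p changed by 0.19 and miR-34b-5p by 0.02 (limma, adjusted p = 0.795 and 0.975), and as a random block by 0.88 and 0.70 (limma, adjusted p = 0.109 and 0.181). With normexp background correction they changed by 0.22 and 0.16 (limma, adjusted p = 0.450 and 0.693). With the software's total gene signal their direction turned, to -0.94 and -0.90. Both were faint, at a mean log2 level of -4.54 and -4.52 in vehicle. miR-192-5p and its partner miR-194-5p, made in tubular epithelium and also reported as p53-induced in human cells, changed by -0.56 ± 0.13 and -0.63 ± 0.13 (limma, adjusted p = 0.00445 and 0.00226). Without scaling they changed by -0.19 and -0.26 and were not called (limma, adjusted p = 0.444 and 0.224). At day 2 and day 4, 0 of 7 passed limma's adjusted test, and miR-34a-5p alone had an unadjusted p under 0.05, with changes of 0.80 and 1.09. Over all miRNAs 1.53% and 3.44% were called on those days, and 11.1% and 22.1% had an unadjusted p under 0.05.

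miRNAs of lipid and glucose metabolism were listed as the other members of the class to which the pair is usually assigned. Of 15 names 13 were on the array and 11 were tested. At day 6 against vehicle 1 rose and 3 fell, where 7.25% and 18.7% of all 262 did. The list median was -0.17 beside -0.11 over all 262. miR-29b-3p, which represses collagens and affects insulin signalling, rose by 0.44 ± 0.13 (SE; limma, adjusted p = 0.0129). With the slide entered as a fixed block, it changed by 0.14 and with a random block by 0.34, and neither was called (limma, adjusted p = 0.707 and 0.179). miR-185-5p, a regulator of cholesterol uptake, fell by 0.69 ± 0.11 on the log2 scale (limma, adjusted p = 0.000303). miR-378a-5p, which lies in an intron of the metabolic coactivator gene Ppargc1b, changed by -0.36 ± 0.09 (limma, adjusted p = 0.00702), and miR-27b-3p, a regulator of lipid genes, by -0.22 ± 0.08 (limma, adjusted p = 0.0375, lost in 19 of 28 alternatives). The call of miR-378a-5p was lost in 6 of 28 and that of miR-185-5p in 3 of 28. Over these alternatives the change of miR-185-5p ran from -1.03 to -0.32 (limma, adjusted p up to 0.182), with the smallest fall without scaling. At day 2 and day 4, 0 of 11 passed limma's adjusted test, and 2 and 2 had an unadjusted p under 0.05. Of all 262, 1.53% and 3.44% passed, and 11.1% and 22.1% had an unadjusted p under 0.05.

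**Figure D5:**
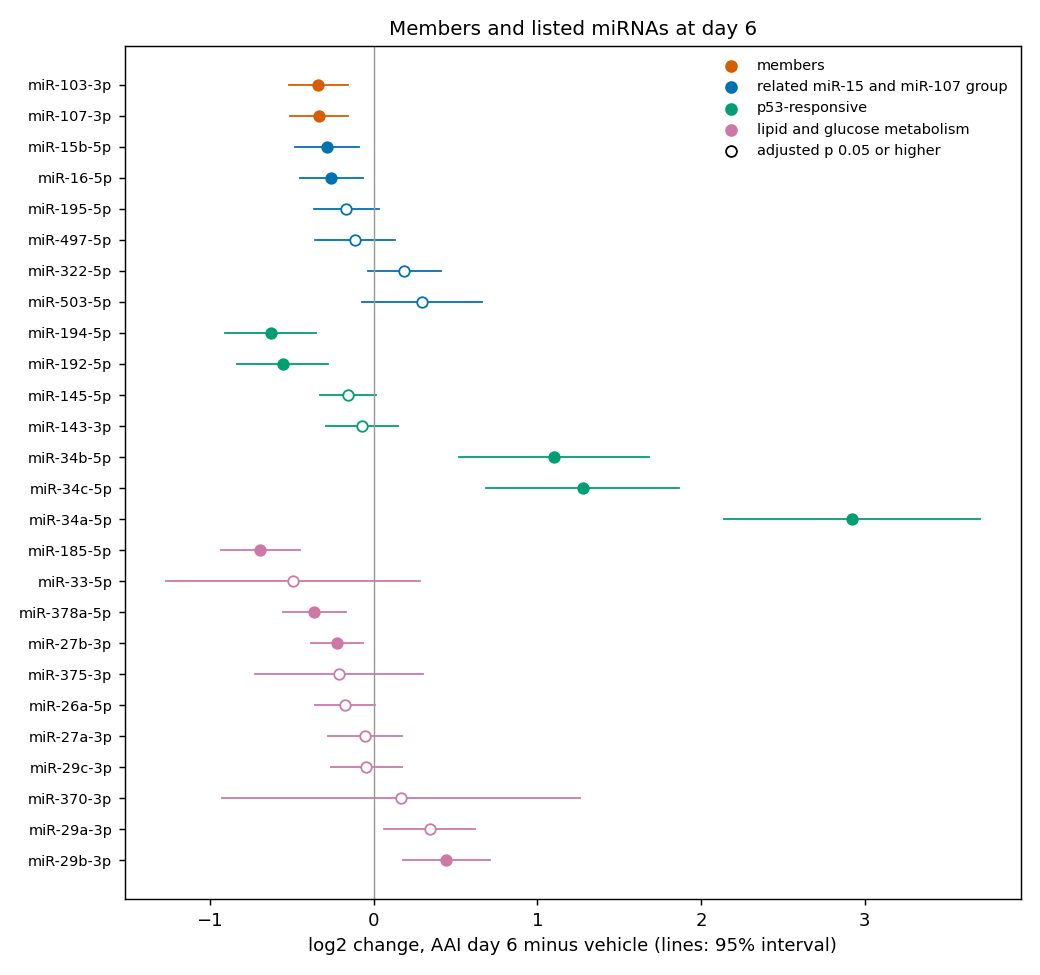
Log2 change at AAI day 6 against vehicle of miR-103-3p, miR-107-3p and the tested miRNAs of the related, p53-responsive and metabolic lists (points, with the 95% interval as lines), filled where the adjusted p is under 0.05. The pair lies at -0.34 and -0.33, miR-34a-5p at 2.92 and miR-185-5p at -0.69.

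Cell type markers were read on the same scale. All 6 kidney epithelial markers (miR-10a-5p, miR-192-5p, miR-30a-5p, miR-194-5p, miR-204-5p and miR-200b-3p), 2 of them also on the p53 list, were detected on all 20 arrays. Their summed scaled level ranged from 36.5 to 39.9 in vehicle and from 29.8 to 37.2 at day 6. At day 6 against vehicle 3 of 6 epithelial, 1 of 4 stromal, 0 of 2 endothelial and 0 of 4 leukocyte markers tested fell by limma, as did the 1 erythrocyte marker tested, and 0 of these rose, against 18.7% lower and 7.25% higher among all 262 miRNAs. At an unadjusted p under 0.05, 1 of 2 endothelial and 1 of 4 leukocyte markers were lower, where 41.2% of all 262 miRNAs passed in either direction. Of 3 erythrocyte markers 2 were on the array and 1, miR-451-5p, was detected on all arrays. Their sum ranged from 0.407 to 1.34 for vehicle, 0.555 to 1.26 for day 2, 0.304 to 0.670 for day 4 and 0.0524 to 0.202 for day 6. Its day 6 values lay below all vehicle values. The endothelial sum ranged from 8.94 to 9.15 in vehicle and 6.98 to 8.78 at day 6 (2 markers), again without overlap. Of all 262 miRNAs, 19.1% had every day 6 array below every vehicle array. Most of the endothelial sum was miR-126a-3p, at a mean log2 level of 3.12 in vehicle, against -1.61 for miR-126a-5p. The day 6 and vehicle arrays did not overlap for miR-126a-3p but did for miR-126a-5p. The stromal sum ranged from 7.77 to 8.92 in vehicle and 6.74 to 8.36 at day 6 (4 markers). The leukocyte sum ranged from 1.71 to 1.99 and 1.36 to 2.06 (4 of 5 on the array, 3 detected on all arrays). Its members differed: miR-150-5p, at the highest level, changed by 0.01 and miR-223-3p by -0.17 (limma, adjusted p = 0.977 and 0.511). The change was -0.69 for miR-142-3p and -0.60 for miR-142-5p (limma, adjusted p = 0.0628 and 0.123). Of 6 markers of other tissues 1 was detected on all arrays and 2 on none. These marker values depend on the scaling, and vehicle and day 6 arrays shared no slide. Over all 262 miRNAs, calls of a lower level at day 6 went from 49 to 1 without scaling, and to 1 with the labelling spike-ins. Without scaling, the epithelial markers miR-192-5p and miR-194-5p changed by -0.19 and -0.26 and were not called (limma, adjusted p = 0.444 and 0.224). The part of these cell types in the change of the pair was not tested.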

How the data were processed

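Kidney RNA was labelled with Cy3 on 1-colour Agilent miRNA arrays. Feature Extraction 10.7.1.1 made the deposited intensity values, which are background-subtracted and unscaled between arrays, per the file headers. Outlier and detection flags, deposited as 0 or 1, are values of the other kind. In the deposited series table the values are on a log2 scale, and how they were scaled and centred are not given in the sources used here (column medians -3.32 to -3.01). It was used as an alternative only.

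Mean spot intensities, without flagged spots, were summed over the probes of a miRNA. The sum was divided by the array's 75th percentile over 231 miRNAs, floored at 0.00640 and log2-transformed. limma 3.58.1 (R 4.3.3) was fitted to all 20 arrays and 262 miRNAs, with 6 contrasts and Benjamini-Hochberg adjustment at 0.05, and was tested on simulated data. The pair's ratio was tested by exact permutation over 252 splits. Alternatives changed background correction, scaling, probe summary, detection filter, slide or replicate block, variance model or arrays used. The number of arrays limits the precision. The labels do not say that replicate kidneys came from separate animals, so p-values measure the spread between these samples.

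The pair and the lists of other miRNAs were chosen with earlier results of these data known. Those named were the pair, the 5 most like each, and listed miRNAs past the threshold at day 6. Replicate numbers did not pair the samples: 11 of 30 same-numbered pairs of arrays deviated together (r over 0.1), over a range of -0.621 to 0.659.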

Additional observations from a re-analysis of the deposited data

Results flagged for a closer look

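In 24 sets of 5 arrays, 5 held an array whose gap to its nearest neighbour took up an unusually large share of the range (over 0.71, Dixon's 95% value, which chance passes in about 1 set of 20). All 5 concern brightness before scaling. They fall repeatedly on the same arrays, and the unscaled log2 intensities of the pair had a Pearson r of 0.987. The 24 sets are therefore not independent, and 5 of 24 cannot be set against 1 in 20. In AAI day 6, array 2 was the dimmest for miR-103-3p (1013, share 0.722), for miR-107-3p (1242, share 0.779) and for the 75th percentile (309, share 0.838). In AAI day 4, array 1 was low for miR-103-3p (1257, share 0.711) and miR-107-3p (1446, share 0.796). On the scaled level, 0 of 8 sets of the pair passed.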

How the results depend on the processing

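At day 6 against vehicle, 28 alternatives were run for each of the pair. The call and its direction were kept in 21 for miR-103-3p and 21 for miR-107-3p, and leaving out 1 array at a time gave -0.36 to -0.30 for miR-103-3p and -0.35 to -0.30 for miR-107-3p. Most of these 21 left out 1 array or returned the main estimate unchanged, so the count is no measure of robustness. Counts out of 28 for other miRNAs hold the same settings. Among the alternatives that kept the pair's call, only the 75th percentile of all miRNAs changed the scaling. The call was lost (values for miR-103-3p, then miR-107-3p) when scaled to the median of miRNAs detected on all arrays (-0.30 and -0.29, adjusted p = 0.196), with quantile normalization (-0.15 and -0.12), with the software's total gene signal (-0.12 and -0.11, adjusted p = 0.554), in the authors' series table (-0.13 and -0.12), with the spike-ins (-0.0797 and -0.0747) and with slide as a fixed block without AAI day 4 array 2 (-0.58 and -0.64). These last 2 settings were added after seeing the data. Without scaling the direction turned (0.0329 and 0.0379). The count of called miRNAs, 68, became 24 with normexp background correction, 27 when scaled to the median, 34 without scaling, 23 with total gene signal, 22 with spike-ins and 0 (limma, adjusted; 78 at an unadjusted p under 0.05) with the fixed block that left out AAI day 4 array 2, against 90 with that array. At day 2 it was 0 to 9 and at day 4 0 to 19, against 4 and 9.

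The replicate number as a block, which does not pair the samples (4 of 20 arrays correlated best with their own number), gave -0.34 and -0.33 (adjusted p = 0.00701 and 0.0107).

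Changes that were not called turned direction at day 2 without scaling (0.21 and 0.22) and with spike-ins (0.17 and 0.18), for miR-107-3p also with quantile normalization (0.0376), total gene signal (0.0101) and the series table (0.0545). At day 4 they turned without scaling (0.18 and 0.18) and, for miR-103-3p, with spike-ins (0.0021). Day 6 against day 2 became called with slide as a fixed block (-0.49 and -0.52), but not when that fit left out AAI day 4 array 2 (-0.41 and -0.47, adjusted p = 0.155 and 0.0918), which took its 95 called miRNAs to 0 (limma; 56 at an unadjusted p under 0.05). It was also called with trended and robust variance (-0.25 and -0.26), and for miR-107-3p with the filter on all 20 arrays (-0.26) and slide as a random block (-0.38). Leaving out 1 array at a time gave -0.31 to -0.20 and -0.32 to -0.21 there. The ratio of the pair, near 0, took the other sign at day 2 within slide (0.0051), at day 4 with the brightest probe (-0.00030), and without 1 array at day 4 (-0.0055 to 0.031) and day 6 (-0.020 to 0.0061).

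Of the others at day 6, without scaling miR-15b-5p (0.0871), miR-16-5p (0.112), miR-378a-5p (0.0081) and miR-27b-3p (0.15) turned, as did miR-27b-3p with spike-ins (0.0338) and miR-34b-5p (-0.90) and miR-34c-5p (-0.94) with total gene signal. Calls were lost in 2 of 28 alternatives for miR-34a-5p, 7 for miR-34b-5p, 6 for miR-34c-5p, 5 for miR-29b-3p, 5 for miR-192-5p and 4 for miR-194-5p. For miR-29b-3p these included the 75th percentile of all miRNAs (0.34) and the median (0.49). Except for the slide, array and scaling settings named, the cause of these differences was not tested.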
